A study of Rattus norvegicus with 14 samples.

Results

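The lateral prostate of male Noble rats given testosterone and estradiol (T+E2) was compared with that of control rats, using 8 of the 14 arrays of the study: 4 of T+E2 rats and 4 of control rats. The Noble rat is a strain whose lateral prostate develops dysplasia under long exposure to both hormones. All rats were 48 weeks old, and each array held RNA of the lateral prostate of 1 labelled sample. Control rats carried empty capsules under the skin. T+E2 rats carried Silastic capsules with 30 mg testosterone and 15 mg estradiol for 32 weeks. In the other 2 groups, used here only to set T+E2 beside them, the capsules held 30 mg testosterone with 15 mg bisphenol A (T+lowBPA, n = 3) or 320 mg bisphenol A (T+highBPA, n = 3), a plastic monomer with weak estrogenic activity. No group given testosterone alone or estradiol alone was analysed here, so the difference from control holds both hormones. Prostate tissue holds epithelium, stroma, muscle and blood cells, and in RNA of a tissue fewer cells of a type and less RNA per cell cannot be told apart.

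Androgens act through the androgen receptor to keep the secretory epithelium of the prostate. Estradiol acts through estrogen receptors alpha and beta, the first found mainly in prostate stroma and the second mainly in epithelium, and it raises pituitary prolactin, which acts on the lateral lobe through its own receptor. The liganded estrogen receptor binds DNA at palindromic estrogen response elements or, at other genes, through partner factors.

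Levels are log2 values after RMA, a method that corrects background, scales arrays to each other and summarises the probes of a gene. A difference of 1 is a 2-fold change. Each of 16134 named genes had 1 probe set. A gene was called changed where the adjusted p of the limma fit was below 0.05, with Benjamini-Hochberg adjustment over all 16134 genes. The labelled tissue was checked on probasin, Pbsn, a secreted protein of rat prostate epithelium, which stood at 12.1 to 12.9 on all 8 arrays. Across genes, arrays correlated at 0.956 to 0.994 within control and 0.979 to 0.991 within T+E2. Of 11 secretory genes of the ventral lobe, the mean was 9.51 in control replicate 4 and 9.44 in T+E2 replicate 2 against 4.98 to 6.57 in the other 6 arrays. The mean of 18 skeletal muscle genes was 6.86 to 9.56 over control arrays and 6.25 to 9.0 over T+E2 arrays, so both groups overlapped in this tissue.

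T+E2 changed 521 genes, or 3.23% of those tested, with 284 higher (1.76%) and 237 lower (1.47%). The largest changes were rises. At least 2-fold, 93 genes rose and 19 fell, at least 4-fold 31 rose and 1 fell, and at least 8-fold 6 rose and 1 fell. The 4 genes that rose at least 16-fold were Gucy2f, Clca1, Adgrg7 and Syt10, and 0 genes fell that far. The median difference over all genes was 0.01. Rises did not outnumber falls under every setting: array weights gave 515 higher and 583 lower, and dropping T+E2 replicate 3 gave 240 and 263. Leaving out 1 array gave 282 calls for T+E2 replicate 4, 317 for T+E2 replicate 2, 295 for control replicate 2 and 315 for control replicate 3. With each of the 14 arrays left out in turn, 222 genes (1.38%) were called every time, 152 of them higher (0.942%) and 70 lower (0.434%). The 20 largest rises and 20 largest falls among those 222, taken where the 4 T+E2 arrays did not overlap the 4 control arrays, are described by role below. The choice thus fixed that control and T+E2 do not overlap in these genes. The arrays of both groups did not overlap in 9.35% of all genes and in 490 of the 521 called ones, so among called genes a gap is the rule.

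**Figure D1:**
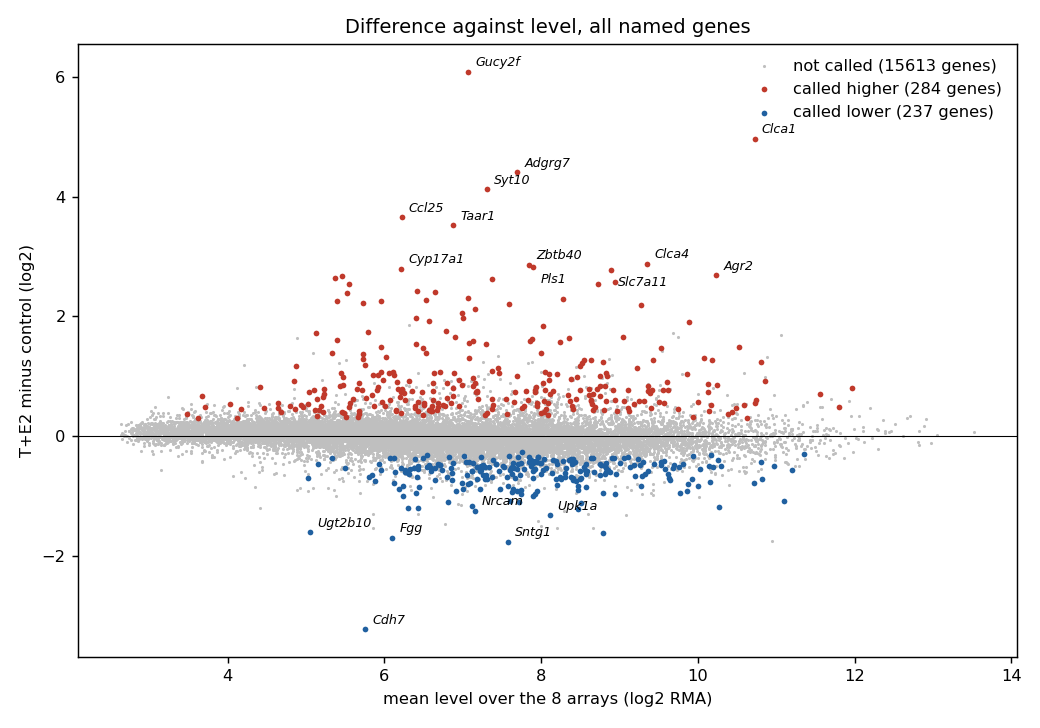
Difference between T+E2 and control (log2, vertical axis) against the mean level over the 8 arrays (log2 RMA, horizontal axis) for 16134 genes. Red points are the 284 genes called higher, blue points the 237 called lower and grey points the rest. The highest point is Gucy2f at 6.09 and the lowest Cdh7 at -3.23.

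The promoters of the 5 largest rises that have an entry in the RefSeq promoter table of build GRCr8 are printed first, because they are the stretches next to the starts of the genes that moved most. Each holds 250 bases before the gene's start and 50 after it. Capitals mark GGTCA, the core of the estrogen response element, or its reverse complement TGACC. Syt10 has no entry in the table.
Gucy2f, chrX:110604968-110605267, minus strand: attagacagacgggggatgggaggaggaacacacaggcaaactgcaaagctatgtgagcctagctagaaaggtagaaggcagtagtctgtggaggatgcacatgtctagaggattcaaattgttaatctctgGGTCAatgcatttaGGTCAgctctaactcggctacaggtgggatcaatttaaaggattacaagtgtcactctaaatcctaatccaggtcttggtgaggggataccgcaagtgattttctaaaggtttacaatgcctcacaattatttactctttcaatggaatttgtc
Clca1, chr2:236624665-236624964, minus strand: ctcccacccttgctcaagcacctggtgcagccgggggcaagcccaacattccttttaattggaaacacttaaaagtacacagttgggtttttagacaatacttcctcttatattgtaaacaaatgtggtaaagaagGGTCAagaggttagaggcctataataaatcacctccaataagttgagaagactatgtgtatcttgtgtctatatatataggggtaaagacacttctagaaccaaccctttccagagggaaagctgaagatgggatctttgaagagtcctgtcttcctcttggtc
Adgrg7, chr11:57282654-57282953, plus strand: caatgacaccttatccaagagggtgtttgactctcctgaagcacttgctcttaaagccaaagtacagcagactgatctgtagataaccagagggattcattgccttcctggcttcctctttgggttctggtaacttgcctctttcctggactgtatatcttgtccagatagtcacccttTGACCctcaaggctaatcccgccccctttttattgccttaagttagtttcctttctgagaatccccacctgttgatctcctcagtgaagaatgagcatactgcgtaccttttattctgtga
Ccl25, chr12:7504985-7505284, plus strand: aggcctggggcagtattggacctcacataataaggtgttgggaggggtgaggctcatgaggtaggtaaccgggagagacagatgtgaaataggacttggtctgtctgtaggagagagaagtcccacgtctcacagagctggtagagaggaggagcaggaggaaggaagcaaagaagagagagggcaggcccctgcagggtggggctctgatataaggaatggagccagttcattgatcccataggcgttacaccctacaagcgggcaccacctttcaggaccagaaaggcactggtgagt
Taar1, chr1:23337927-23338226, minus strand: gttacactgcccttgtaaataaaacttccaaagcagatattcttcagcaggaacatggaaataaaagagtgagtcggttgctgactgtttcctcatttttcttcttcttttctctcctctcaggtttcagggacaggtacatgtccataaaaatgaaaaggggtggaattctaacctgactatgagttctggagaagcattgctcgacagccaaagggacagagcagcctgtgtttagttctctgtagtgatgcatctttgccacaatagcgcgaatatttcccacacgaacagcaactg
The core occurred 2 times in the Gucy2f window, 1 time each in those of Clca1 and Adgrg7, and 0 times in those of Ccl25 and Taar1. A full palindrome, GGTCA and TGACC with 3 bases between them, was in 0 of the 16 named rises and 0 of the 16 named falls that have a promoter entry. It was in 2 of the 13156 measured genes with one, or 0.0152%. On either strand the core was in 8 of 16 rises, 5 of 16 falls (31.2%) and 38.1% of all 13156 promoters. The androgen receptor core AGAACA or TGTTCT was in 1 of 16 rises (6.25%, Pls1), 5 of 16 falls (31.2%, Cdh7, Ugt2b10, Dsc1, Oxnad1 and Trim63) and 15.3% of all. By their letters the 2 cores can share 1 base, as they did in 5 of the 13156 promoters (0.038%) and in 0 of the named rises and falls. A match of letters in this window is a description of the window.

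Among receptors and signalling proteins, Gucy2f, a membrane guanylyl cyclase known from photoreceptors, moved most. Control arrays 1 to 4 read 4.04, 3.99, 3.97 and 4.11, and T+E2 arrays 1 to 4 read 10.49, 9.79, 10.10 and 10.09. The 4 controls lay together near the low end of the scale, and the lowest T+E2 array was far above the highest of them. The difference was 6.09 (95% interval 5.83 to 6.36, adjusted p = 5.26e-13).

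Adgrg7, an adhesion G protein-coupled receptor known from the intestine, read 7.04, 5.11, 5.02 and 4.79 in control and 9.68, 10.10, 10.16 and 9.67 in T+E2. Control replicate 1 stood above the other controls and still below all T+E2 arrays. Taar1, a receptor for trace amines, read 5.35, 4.92, 4.56 and 5.62 in control and 8.67, 8.63, 8.61 and 8.64 in T+E2. The T+E2 arrays were almost level with each other (SD 0.03), against an SD of 0.47 in control. Ccl25, a chemokine that the thymus and small bowel make and that attracts CCR9-bearing lymphocytes, read 5.27, 4.14, 3.97 and 4.17 in control and 7.54, 7.83, 8.43 and 8.40 in T+E2. Replicate 1 was again the highest control. Or51q1, an olfactory receptor, rose by 2.40 ± 0.16 (SE), and Obp2a, a lipocalin that carries odorants, by 2.54 ± 0.17.

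Clca1, Clca4, Agr2 and Pla2g10, also among the 20 rises, encode secreted proteins or proteins of mucus production. Clca1, which goblet cells secrete and which processes mucus, read 10.85, 8.71, 7.74 and 5.65 in control, and 13.24, 13.13, 13.26 and 13.20 in T+E2. The controls were spread over a wide range (SD 2.16), while the T+E2 arrays were together at the top (SD 0.06). The highest value of any gene on the T+E2 arrays was 13.5 to 13.6, so Clca1 lay close to the top of the scale there, and whether its probes were saturated was not tested. The difference as measured was 4.97 (95% interval 3.30 to 6.64, adjusted p = 0.00218), and it was 4.11 without control replicate 4 and 5.84 without control replicate 1. Clca4, of the same family, read 8.46, 7.95, 8.19 and 7.04 in control and 10.72, 10.65, 11.03 and 10.76 in T+E2. Agr2, a disulfide isomerase that mucins need for folding, read 9.10, 9.18, 8.61 and 8.67 in control and 11.15, 11.57, 11.95 and 11.66 in T+E2. In both genes every T+E2 array was more than 1 log2 unit above every control array. Pla2g10, a secreted phospholipase A2, rose by 2.43 ± 0.26 (SE).

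Syt10, Pls1, Anxa13 and Nostrin encode proteins of vesicles, membranes or the cell cortex. Syt10, a calcium sensor for vesicle release, read 4.88, 5.05, 5.61 and 5.43 in control and 9.06, 9.49, 9.39 and 9.54 in T+E2. Pls1, the fimbrin of intestinal microvilli, read 6.66, 6.73, 6.87 and 5.68 in control and 8.82, 9.33, 9.60 and 9.48 in T+E2. The differences of Syt10 and Pls1 were 4.13 (adjusted p = 3.53e-09) and 2.83 (adjusted p = 2.02e-05). Anxa13, an annexin of intestinal and kidney epithelium, rose by 2.64 ± 0.32 (SE), and Nostrin, which binds and moves endothelial nitric oxide synthase, by 2.63 ± 0.23. Anxa13 was lowest in T+E2 replicate 1, at 5.50 against 6.83 to 7.41 in the other T+E2 arrays. Of 26 synaptotagmins and related genes, 3 rose and 1, Syt9, fell (by 0.47, adjusted p = 0.0422), or 15.4% against 3.23% of all genes. Their median was 0.02, and Syt10 was the 1 whose call held with each array left out.

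Other rises encode enzymes and transporters of steroid, lipid and redox metabolism. Cyp17a1, the 17-hydroxylase and lyase on the path to androgens, read 4.94, 5.04, 4.62 and 4.68 in control and 7.36, 7.36, 8.33 and 7.43 in T+E2. T+E2 replicate 3 was the highest, and the other 3 read 7.36 to 7.43. Slc7a11, the cystine-glutamate exchanger, read 7.61, 7.91, 7.48 and 7.0 in control and 9.57, 10.23, 10.90 and 10.42 in T+E2. Akr1c15, a rat aldo-keto reductase, rose by 2.54 ± 0.28 (SE). Mboat2, a lysophospholipid acyltransferase, read 6.58, 7.41, 7.14 and 9.48 in control and 9.89, 10.37, 10.38 and 10.27 in T+E2. Control replicate 4, the array with high ventral prostate genes, came close to the lowest T+E2 array, and the adjusted p of Mboat2 was 0.00854. The difference was 2.58, and 3.19 without that array. The part of the ventral prostate genes in this spread was not tested.

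The last 2 rises act in the nucleus. Zbtb40, a zinc finger protein, read 6.45, 6.42, 6.33 and 6.44 in control and 8.66, 8.77, 9.97 and 9.69 in T+E2. Khdrbs2, an RNA-binding protein of splicing, read 4.63, 3.98, 3.96 and 3.90 in control and 7.91, 6.68, 5.95 and 6.66 in T+E2. T+E2 arrays were more spread than controls in both genes, with SDs of 0.66 and 0.81 against 0.06 and 0.34. Averaged over the 20 rises, the T+E2 arrays stood at 8.84, 9.08, 9.41 and 9.23 and the control arrays at 6.27, 5.98, 5.84 and 5.67. T+E2 replicate 1 was the lowest T+E2 array for 13 of the 20 genes, and T+E2 replicate 3 the highest for 14.

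**Figure D2:**
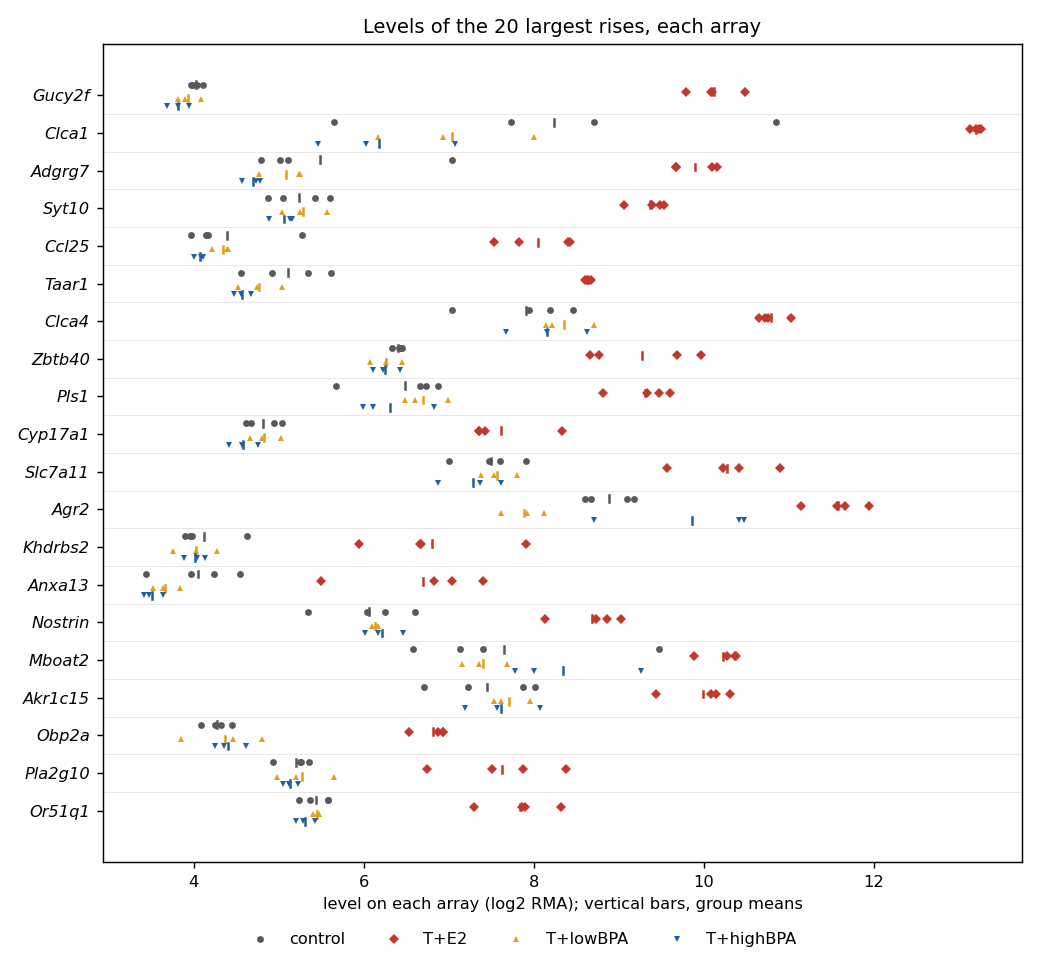
Level on each array (log2 RMA, horizontal axis) of the 20 largest rises, with control as grey circles, T+E2 as red diamonds, T+lowBPA as yellow triangles and T+highBPA as blue inverted triangles. Vertical bars are group means. The red diamonds lie to the right of all other points in each of the 20 genes, which for the control circles was fixed by the choice of genes.

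Falls were smaller, and 15 of the 20 largest were at least 2-fold. Cdh7, a type II cadherin of cell adhesion, read 7.54, 7.22, 7.64 and 7.09 in control and 4.33, 3.82, 3.59 and 4.84 in T+E2. It is the 1 gene that fell more than 4-fold, by 3.23 (95% interval -3.71 to -2.74, adjusted p = 1.25e-06). It was the 1 gene called among 86 cadherins and protocadherins (1.16% against 3.23% of all genes), with a median of 0.06 for the family. Sntg1, a syntrophin that links membrane proteins to the dystrophin complex, read 8.40, 8.51, 8.78 and 8.15 in control and 7.15, 6.33, 6.47 and 6.80 in T+E2. Nrcam, a neuronal-type adhesion molecule, fell by 1.25 ± 0.17 (SE) and Dsc1, a desmosomal cadherin, by 1.20 ± 0.15. The groups of these 4 genes did not overlap, as the choice of genes required.

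Ugt2b10, Papss2, Psat1, Aldh1l2 and Plaat1, also among the 20 falls, encode enzymes that conjugate or build small molecules. Ugt2b10, a glucuronosyltransferase of the family that inactivates steroids, read 6.07, 5.49, 6.12 and 5.76 in control and 4.37, 4.45, 4.23 and 3.95 in T+E2. Papss2, which makes the sulfate donor for sulfation, read 10.80, 10.91, 11.02 and 10.74 in control and 9.45, 9.59, 10.06 and 9.64 in T+E2. Psat1, of serine synthesis, read 7.82, 7.83, 7.49 and 7.67 in control and 6.17, 6.88, 6.47 and 6.62 in T+E2. In all 3 genes the lowest control was above the highest T+E2 array, as the choice of genes required. Aldh1l2, a mitochondrial folate enzyme, fell by 0.95 ± 0.18 (SE) and Plaat1, a phospholipid acyltransferase, by 1.11 ± 0.21. With only the 8 compared arrays in the fit, Plaat1 had an adjusted p of 0.0654. Of 48 glucuronosyltransferases, sulfotransferases and glutathione transferases as a whole, 1 rose and 2 fell (6.25% against 3.23% of all genes), with a median of -0.04.

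Other falls encode secreted proteins or proteins of epithelia. Fgg, the fibrinogen gamma chain, read 7.41, 7.48, 7.01 and 5.90 in control and 5.43, 5.36, 5.21 and 5.0 in T+E2. Wif1, a secreted Wnt inhibitor, read 8.96, 9.23, 9.51 and 8.65 in control and 7.73, 7.50, 8.02 and 8.18 in T+E2. Elf5, an epithelial transcription factor that prolactin regulates in mouse mammary gland, read 9.72, 9.41, 9.56 and 9.03 in control and 8.54, 8.15, 8.55 and 8.59 in T+E2. Control replicate 4 was the lowest control in these 3 genes and, as the choice of genes required, above the T+E2 arrays. Upk1a, a uroplakin of urothelium, fell by 1.33 ± 0.17 (SE) and Spink5, a serine protease inhibitor, by 1.01 ± 0.20. With only the 8 compared arrays in the fit, Spink5 had an adjusted p of 0.0512.

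The remaining 6 falls were Trim63, Oxnad1, Fam169a, Cacna1d, Nol10 and Prkx, by 1.10, 1.13, 1.0, 0.97, 0.95 and 0.92. Cacna1d is a pore subunit of L-type calcium channels, Nol10 a nucleolar protein and Prkx a kinase related to protein kinase A. Trim63, a ubiquitin ligase of striated muscle, read 8.30, 8.38, 8.26 and 8.12 in control and 7.24, 6.47, 7.49 and 7.47 in T+E2. The 18 skeletal muscle markers had a median difference of -0.71, with 17 of 18 below 0 and 0 called. With the mean of these markers as a covariate, Trim63 fell by 1.07 (adjusted p = 0.0109).

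**Figure D3:**
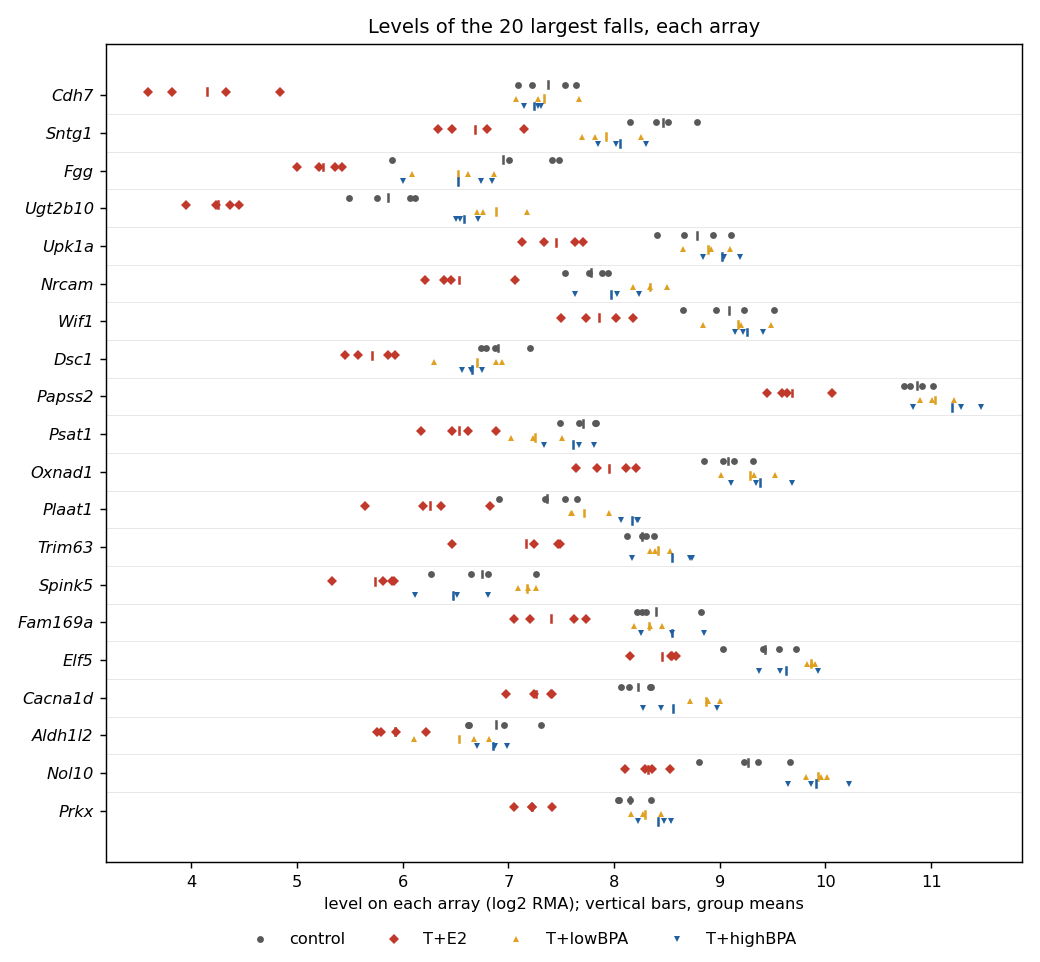
Level on each array (log2 RMA, horizontal axis) of the 20 largest falls, with the same symbols for the 4 groups and bars for their means. The red T+E2 diamonds lie to the left of the grey control circles in each gene, as the choice of genes required. Cdh7 has the widest gap, 3.23 between the means.

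The BPA groups received the same testosterone dose as T+E2, with bisphenol A in place of estradiol. The comparisons of T+E2 with the 3 other groups share the T+E2 arrays, so the values are given side by side and one does not support another. T+E2 differed from T+lowBPA in 569 genes (3.53%), with 282 higher (1.75%) and 287 lower (1.78%). It differed from T+highBPA in 1639 genes (10.2%), with 594 higher (3.68%) and 1045 lower (6.48%). Without control replicate 4, which enters these 2 comparisons only through the shared spread, the counts were 882 and 2493. They were 309, 327 and 335 without T+lowBPA replicate 1, 2 or 3, and 857, 908 and 1054 without T+highBPA replicate 1, 2 or 3, and 1040 genes differed from T+highBPA without T+E2 replicate 1. The 11 ventral prostate genes averaged 8.25, 9.51 and 7.76 on the T+highBPA arrays and 6.0, 6.16 and 6.0 on the T+lowBPA arrays. With their mean as a covariate, T+E2 differed from T+lowBPA in 868 genes and from T+highBPA in 1649. The part of the ventral prostate genes in the BPA levels below was not tested.

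The BPA arrays entered the choice of these genes only through the shared spread, and their levels were read against control. The mean of T+lowBPA minus that of control ran from -1.20 (Clca1) to 0.45 (Clca4) over the 20 rises, with a median of -0.02. That of T+highBPA minus control ran from -2.05 (Clca1) to 0.97 (Agr2), with a median of -0.17. Over the 20 falls, T+lowBPA minus control ran from -0.54 (Sntg1) to 1.02 (Ugt2b10), with a median of 0.15. For T+highBPA it ran from -0.42 (Fgg) to 0.82 (Plaat1), with a median of 0.19. The T+lowBPA mean was within the control range for 17 rises and 8 falls, and the T+highBPA mean for 15 and 9. None of the 40 named genes was called in either BPA group against control (limma, 0 of 40 each). The shares of all genes that differed in these 2 comparisons are not given here. The counts of named genes therefore cannot be read as a trait of these genes. At an unadjusted p below 0.05, Agr2 in T+lowBPA and Clca1, Taar1 and Agr2 in T+highBPA differed from control among the rises, and 7 and 4 of the falls.

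Gucy2f read 4.09, 3.90 and 3.82 in T+lowBPA and 3.82, 3.94 and 3.69 in T+highBPA, and T+E2 was higher by 6.18 and 6.30 (adjusted p = 1.25e-12 and 9.61e-13). Clca1 read 6.94, 6.17 and 8.01 in T+lowBPA and 5.46, 6.03 and 7.07 in T+highBPA, within or under the range of its controls. Cyp17a1 read 4.81, 4.66 and 5.03 in T+lowBPA and 4.42, 4.57 and 4.76 in T+highBPA. In these 3 genes every BPA array was below every T+E2 array. Agr2 and Mboat2 were the rises with the T+highBPA levels nearest to T+E2. For T+lowBPA the nearest was Akr1c15, with T+E2 higher by 2.29. Agr2 read 7.92, 7.62 and 8.12 in T+lowBPA, and 10.42, 10.47 and 8.71 in T+highBPA. The T+highBPA arrays 1 and 2 were above all controls and below all T+E2 arrays, and T+E2 was higher by 1.72 (adjusted p = 0.00689) there against 3.70 (adjusted p = 2.44e-05) over T+lowBPA. Mboat2 read 8.01, 9.26 and 7.78 in T+highBPA, and T+E2 was higher by 1.88 (adjusted p = 0.0342), a call that ended without any 1 of the 4 T+E2 arrays or T+highBPA replicate 1 or 3 (adjusted p up to 0.127).

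Among the falls, Cdh7 read 7.07, 7.67 and 7.28 in T+lowBPA and 7.31, 7.15 and 7.28 in T+highBPA, at the level of its controls. Ugt2b10 read 7.18, 6.76 and 6.70 in T+lowBPA and 6.71, 6.50 and 6.54 in T+highBPA. All 6 BPA arrays were above the 4 controls, which were above the 4 T+E2 arrays, and T+E2 was lower by 2.63 and 2.33 (adjusted p = 7.67e-07 and 1.72e-06). Aldh1l2 read 6.67, 6.82 and 6.11 in T+lowBPA, overlapping T+E2, and was the 1 fall not called against that group. The calls of Fgg, Psat1 and Fam169a against T+lowBPA did not hold with each array left out (adjusted p up to 0.201). Nor did those of Fgg and Spink5 against T+highBPA (adjusted p up to 0.171). Nol10 read 9.96, 9.82 and 10.01 in T+lowBPA and 10.22, 9.65 and 9.86 in T+highBPA, against 8.80 to 9.66 in control. Control thus lay between the BPA groups and T+E2, with T+highBPA replicate 2 just inside its range.

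Of 29 measured steroid and nuclear hormone receptors, 1 rose and 0 fell, and the median difference was -0.07. This is 3.45% of the list, near the 3.23% of all genes. The counts of the lists that follow stand against 1.76% of all genes higher and 1.47% lower, and those of calls held with each array left out against 0.942% and 0.434%. The 1 called was Esrrb, an orphan receptor related to the estrogen receptors, which read 5.44, 5.30, 5.36 and 5.08 in control and 5.84, 5.94, 5.79 and 6.08 in T+E2 (adjusted p = 0.00863). Esr1, estrogen receptor alpha, read 6.14, 6.15, 6.27 and 6.32 in control and 6.14, 5.98, 6.29 and 6.07 in T+E2, with an interval of the difference of -0.28 to 0.09. Esr2, estrogen receptor beta, read 8.86, 9.22, 9.23 and 9.98 in control and 8.24, 8.89, 8.99 and 8.84 in T+E2. Its groups overlapped, and the difference of -0.58 (95% interval -1.04 to -0.12) had an adjusted p of 0.169. Against T+highBPA, Esr2 was lower by 1.14 in T+E2 (adjusted p = 0.00751, at most 0.0372 with 1 array left out). Against T+lowBPA it was lower by 0.98 (adjusted p = 0.0308), a call that ended without T+E2 replicate 1, 2 or 4 or any T+lowBPA array (adjusted p up to 0.112).

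Pgr, the progesterone receptor and a known estrogen target, read 6.32 to 7.17 in control and 6.77 to 7.02 in T+E2 (adjusted p = 0.862). Nr3c1, the glucocorticoid receptor, read 8.11 to 8.59 and 8.02 to 8.64. Prlr, the prolactin receptor, read 7.55, 7.65, 7.87 and 9.84 in control and 8.84, 10.40, 9.61 and 9.22 in T+E2. Control replicate 4 lay among the T+E2 arrays, and the difference of 1.28 (95% interval 0.22 to 2.35) had an adjusted p of 0.188. Without that array it was 1.82 (adjusted p = 0.0165), with T+E2 replicate 2, at 10.40, kept. Without both of these arrays, the 2 with high ventral prostate genes, it was 1.53 (adjusted p = 0.0386). The part of the ventral prostate genes in the Prlr levels was not tested. Of 23 genes of prolactin and STAT5 signalling, 0 rose and 1, Elf5, fell.

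In steroid synthesis and inactivation, 2 of 31 genes rose and 1 fell, against 1.76% and 1.47% of all genes. Beside Cyp17a1 and Ugt2b10, the third was Hsd11b2, which inactivates glucocorticoids. It read 6.25, 5.65, 5.92 and 6.03 in control and 7.42, 7.91, 8.55 and 8.16 in T+E2 (adjusted p = 7.54e-05). All 3 calls held with each array left out. The median of the list was -0.04.

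Of 36 estrogen-responsive genes, taken from other tissues, 4 rose and 2 fell, or 16.7% against 3.23% of all genes, with a median of 0.09. Car12, a membrane carbonic anhydrase, read 5.75, 6.30, 6.24 and 6.16 in control and 6.69, 6.85, 7.66 and 7.44 in T+E2 (adjusted p = 0.00858). Car12 was the 1 member whose call held with each array left out. The others were Muc1, Fhl2 and Abca3, which rose by 0.56, 0.58 and 0.61, and Hspb8 and Rerg, which fell by 0.78 and 0.51. Of the 6 calls, 1 remained without control replicate 2, and 2 remained when T+E2 replicate 2 or 4 or control replicate 3 was dropped. It was 3 without T+E2 replicate 3, T+highBPA replicate 1 or T+lowBPA replicate 1 or 2. With any other array dropped, 4 or 5 remained. Of 32 androgen-responsive prostate genes, 2 rose and 2 fell, with a median of -0.02. Tmprss2, a membrane serine protease, read 9.0, 9.45, 9.40 and 9.52 in control and 9.84, 10.21, 10.91 and 10.56 in T+E2. Hpgd, which degrades prostaglandins, read 8.06, 8.52, 8.69 and 7.43 in control and 9.0, 9.32, 9.55 and 9.79 in T+E2. Elovl5, a fatty acid elongase, fell by 0.70 ± 0.11 (SE). These 3 calls held with each array left out, while that of Sord, sorbitol dehydrogenase, which fell by 0.86, ended without control replicate 2 or 3 (adjusted p up to 0.0509).

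Of 48 measured goblet cell and mucus genes, 10 rose and 0 fell, or 20.8% against 1.76% higher over all genes, and 8 of the 10 were called with each array left out, against 0.942%. With 1 array left out, 8 to 11 members were called. The median of the list was 0.11 against 0.01 over all genes, so most members moved little. Galnt7, which starts mucin-type sugar chains, read 9.16, 9.22, 9.09 and 8.29 in control and 10.29, 10.92, 11.27 and 10.87 in T+E2. Agr3, the neighbour and relative of Agr2, read 4.27, 4.09, 4.16 and 4.57 in control and 5.48, 6.56, 6.30 and 5.63 in T+E2. Neither overlapped between groups. Gcnt3, which branches mucin chains, rose by 1.76, Clca2 by 0.88 and Slc12a2, the sodium-potassium-chloride cotransporter of secretory epithelia, by 0.81. Muc1, a membrane mucin, rose by 0.56, a call that ended without control replicate 2 (adjusted p = 0.054). Ern2, a stress sensor of mucous epithelia, rose by 0.31 with an adjusted p of 0.0472, a call that held without control replicate 3 and ended without any other array (at most 0.147). Without control replicate 4, 9 rose and 2 fell.

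Of 45 intestinal epithelium genes, 4 rose and 0 fell, with a median of 0.15. Adgrg7 and Ccl25 belong to it, and Anpep, aminopeptidase N of the brush border, rose by 0.74 ± 0.12 (SE). Lgals4, a galectin of the gut, read 7.16, 6.01, 6.15 and 6.02 in control and 6.84, 7.94, 8.83 and 8.06 in T+E2, so its groups overlapped. Its call ended without T+E2 replicate 2 or 4 or control replicate 2 or 3 (adjusted p up to 0.0679). Hnf4a, a transcription factor of intestinal and liver-type epithelium, read 5.28 to 6.44 in control and 5.58 to 5.80 in T+E2 (adjusted p = 0.933).

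**Figure D4:**
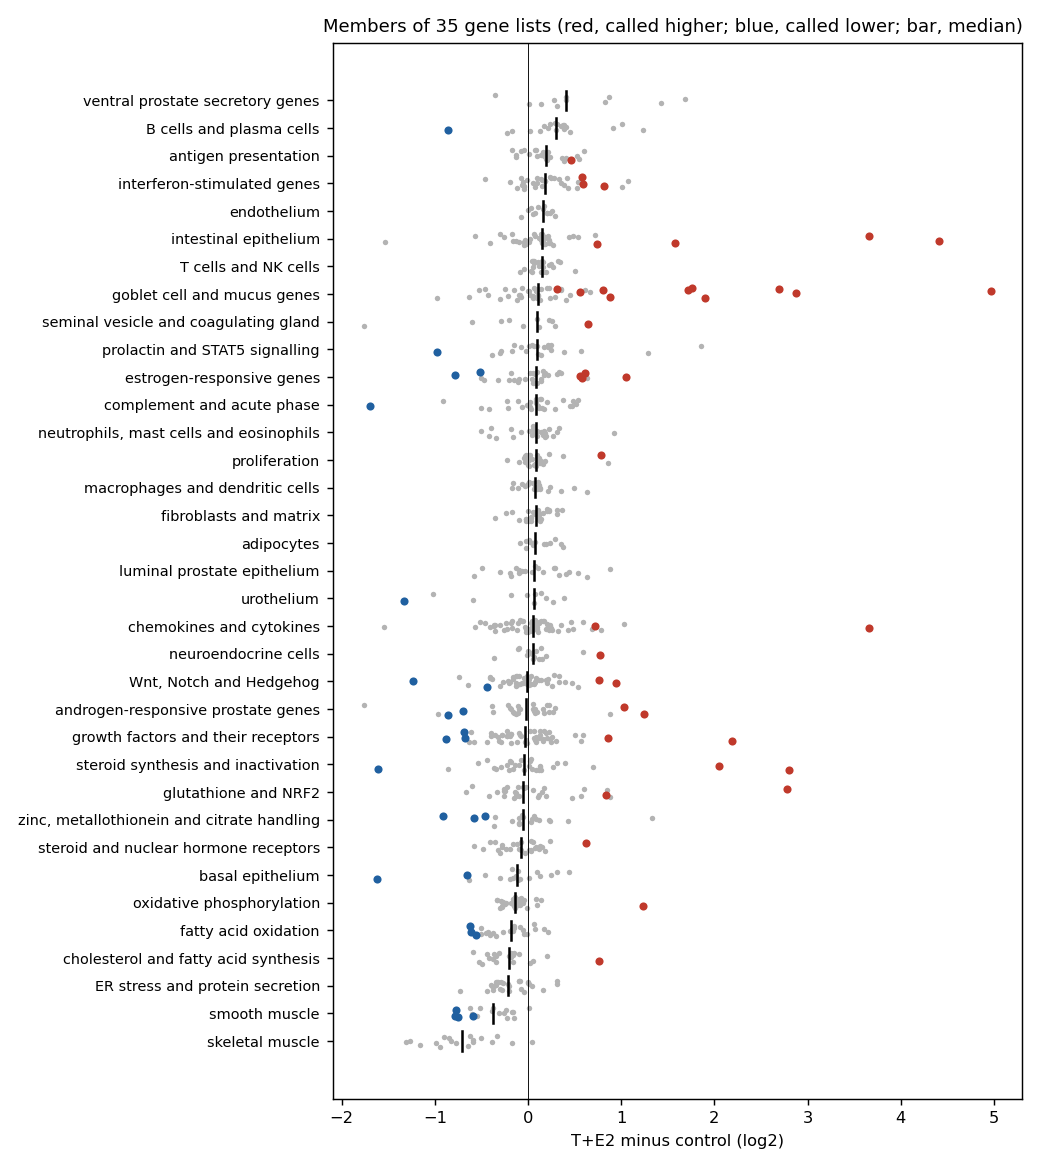
Difference between T+E2 and control (log2, horizontal axis) for each measured member of 35 gene lists, 1 row per list, ordered by median. Red points are genes called higher, blue points genes called lower, grey points the rest, and black bars are list medians. The goblet cell and mucus row holds 10 red points up to 4.97, the smooth muscle row 4 blue points, and 10 lists hold no coloured point.

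Growth factors and their receptors changed in both directions, with 2 of 54 higher and 3 lower (9.26% against 3.23%), and all 5 calls held with each array left out. Hgf, the ligand of the Met receptor, read 8.30, 8.66, 8.45 and 7.33 in control and 10.95, 10.28, 10.33 and 9.92 in T+E2. The difference was 2.19 (adjusted p = 0.000197), and T+E2 was also higher than T+lowBPA by 2.16 (adjusted p = 0.000342) and T+highBPA by 2.35 (adjusted p = 0.000162). Btc, betacellulin, an EGF receptor ligand, read 6.57, 6.31, 6.63 and 6.74 in control and 7.21, 7.24, 7.63 and 7.60 in T+E2. Bmp7, a bone morphogenetic protein, read 8.17, 8.28, 8.24 and 7.64 in control and 7.08, 7.18, 7.16 and 7.39 in T+E2. Fgf1, a fibroblast growth factor, fell by 0.68 ± 0.12 (SE) and Igf1r, the receptor of insulin-like growth factors, by 0.67 ± 0.12. Igf1r was named after its values were seen.

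In Wnt, Notch and Hedgehog signalling, 2 of 52 genes rose and 2 fell, with a median of -0.01. The risers were both at the receptor level: Lgr4, a receptor for R-spondins, which strengthen Wnt signals, by 0.95 ± 0.13 (SE, adjusted p = 0.000601), and Fzd4, a frizzled receptor, by 0.77 ± 0.11 (adjusted p = 0.00105). Wif1 fell, as given above. Lrp5, a Wnt coreceptor, fell by 0.44, a call that ended without control replicate 2 (adjusted p = 0.0605). The list held 6 calls without control replicate 1.

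Among 334 solute carriers, 11 rose and 13 fell, and 7 of each held with each array left out. With 1 array left out the total of 24 was 15 to 25, the lowest for T+E2 replicate 4. Beside Slc7a11, Slc18a1, a vesicular monoamine transporter, read 6.05, 6.05, 5.89 and 5.65 in control and 8.64, 7.50, 8.70 and 8.01 in T+E2. Slc30a10, a manganese exporter, read 5.84, 5.46, 5.70 and 5.54 in control and 6.82, 6.74, 7.66 and 7.49 in T+E2. Slc52a3, a riboflavin transporter, rose by 0.94 ± 0.11 (SE). The groups did not overlap in these genes. Of 86 potassium channels, 2 rose and 1 fell (3.49%, near the share of all genes). Kcng3, a modifier subunit, rose by 0.61 and Kcnq1, a channel of epithelial secretion and heart, by 0.74, both with each array left out. Kcnd2 fell by 0.75, a call that ended without control replicate 2 (adjusted p = 0.052). Of 20 claudins, which seal tight junctions, Cldn8 rose by 0.84 ± 0.11 (SE) and 0 fell.

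In glutathione and NRF2 genes, 2 of 31 rose and 0 fell: Slc7a11 and the glutathione transferase Gsta3, the latter by 0.84 ± 0.16 (SE). In zinc, metallothionein and citrate handling, the chemistry of prostatic fluid, 0 of 20 rose and 3 fell. Of these, Mt3, a metallothionein, fell by 0.91 ± 0.16 (SE) and held with each array left out. The others were the zinc transporter Slc39a7 and Aco1, which fell by 0.57 and 0.46, and neither call held when T+E2 replicate 1, 2 or 4, control replicate 2, 3 or 4, T+highBPA replicate 1 or 3 or any T+lowBPA array was dropped. Of 31 oxidative phosphorylation genes, Ndufa1, a complex I subunit, read 10.24, 10.25, 10.13 and 10.13 in control and 11.55, 11.00, 11.70 and 11.45 in T+E2. It was the 1 member called (3.23%, as over all genes), and the median of the list was -0.14. Of 24 fatty acid oxidation genes, 0 rose and 3 fell, or 12.5% against 1.47% lower over all genes, with a median of -0.18 and 4 members above 0. The 3 were Ehhadh, Acadm and Acaa2, enzymes of beta-oxidation, which fell by 0.62, 0.56 and 0.61. None of these calls held with each array left out, and 0 genes of the list were called without T+E2 replicate 2 or 4 or control replicate 3, and 5 without control replicate 1. Of 29 genes of endoplasmic reticulum stress and protein secretion, 0 were called (limma), and the median was -0.21. At an unadjusted p below 0.05 there were 14, 3 of them higher, against 2882 of all 16134 genes. A single array left out gave 1 call, higher for T+E2 replicate 1 and lower for T+E2 replicate 3, control replicate 1 or T+highBPA replicate 3.

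Markers of other cell types were read for the makeup of the lobe. Of 18 smooth muscle genes, 0 rose and 4 fell, with a median of -0.38 and 17 of 18 below 0. The 4 were the contractile or junction genes Actg2, Tagln, Cnn1 and Pgm5, which fell by 0.78, 0.78, 0.59 and 0.75, and none of these calls held with each array left out. Dropping T+E2 replicate 2 or control replicate 2 or 3 gave 0 calls, T+E2 replicate 3 gave 1 and T+E2 replicate 1 gave 2, and dropping control replicate 1 or 4 gave 6. With the skeletal muscle mean as a covariate, 3 were called and the median was -0.34.

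Of 18 basal epithelium genes, 0 rose and 2 fell (11.1%), with a median of -0.12: Tp63, the p63 factor of basal cells, by 0.66, and Krt15, a basal keratin, by 1.62. The call of Tp63 ended without T+E2 replicate 1, 2 or 4 or control replicate 2 or 3, as did that of Krt15, which also ended without 4 other arrays (adjusted p up to 0.132). Of 20 B and plasma cell genes, 17 were above 0, with a median of 0.31 that was 0.16 without control replicate 4, and the 1 called was Derl3, which fell by 0.86, a call that ended without any 1 of 5 arrays. Without control replicate 1 the list had 3 genes higher and 1 lower. Of 16 neuroendocrine genes, 1 rose, the prohormone convertase Pcsk1 by 0.78, a call that ended without any 1 of 8 arrays. Fibroblast and matrix genes (30), endothelium (13), adipocytes (13), T and NK cells (24), macrophages and dendritic cells (24), granulocytes and mast cells (26) and luminal prostate epithelium (22) each had 0 members called (limma). Against 2882 of all 16134 genes at an unadjusted p below 0.05, they had 0, 2, 1, 2, 2, 7 and 8 members. Their medians were 0.08, 0.16, 0.07, 0.15, 0.08, 0.09 and 0.06, against 0.01 over all genes. The luminal list had 2 calls when T+E2 replicate 1 or control replicate 4 was dropped, the T and NK cell list 1 for control replicate 1 or T+highBPA replicate 2 or 3, and the granulocyte list 1 for control replicate 4. Without control replicate 4 the median of the fibroblast list was -0.07 and that of the macrophage list -0.12.

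Of 35 interferon-stimulated genes, 3 rose and 0 fell, or 8.57% against 1.76% higher over all genes, with a median of 0.18. Isg20, an antiviral exonuclease, rose by 0.58 and was the 1 call that held with each array left out, beside Herc6 and Parp9, which rose by 0.82 and 0.59. The list had 1 call when T+E2 replicate 2 or control replicate 2 was dropped and 8 when control replicate 1 was. The remaining lists had 1 or 2 calls each: Ccl25 and Ccl19 higher among 64 chemokines and cytokines, Erap1 higher among 25 antigen presentation genes, Svs3a higher among 11 genes of the seminal vesicle and coagulating gland, Acss2 higher among 21 cholesterol and fatty acid synthesis genes, Upk1a lower among 11 urothelium genes and Fgg lower among 30 complement and acute phase genes. Of these, the calls of Ccl25, Upk1a and Fgg held with each array left out.

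Of 31 proliferation genes, 1 rose and 0 fell (3.23%, as over all genes), with a median of 0.09. The 1 called was Kif23, a kinesin of cytokinesis, higher by 0.78, and its call ended when T+E2 replicate 1, 2 or 4, control replicate 2 or 3 or T+highBPA replicate 1 was dropped (adjusted p up to 0.0922). Mki67, the Ki-67 marker of cycling cells, read 7.89, 6.89, 6.97 and 5.90 in control and 7.64, 7.45, 6.96 and 7.09 in T+E2. The groups overlapped, and the difference was 0.37 (95% interval -0.27 to 1.02, adjusted p = 0.559).

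Several of the largest rises lay beside related genes that also rose, a pattern that was looked for after the values were seen. The 3 adjacent genes Clca4, Clca1 and Clca2 on chromosome 2 rose by 2.88, 4.97 and 0.88, while Clca4l and Clca5 of the same cluster differed by 0.11 and 0.00 (adjusted p = 0.871 and 0.993). Among 17 measured trace amine receptors on chromosome 1, the 3 at one end, Taar3, Taar2 and Taar1, rose by 1.17, 0.54 and 3.52. The call of Taar2 ended without T+E2 replicate 2 or control replicate 2 or 3 (adjusted p up to 0.065). The other 14 were not called.

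Of 43 measured Or51 olfactory receptors, 10 rose and 0 fell. All 10 lay in a run of 11 measured genes from Or51b4b to Or51i1, in which Or51b4 alone was not called. Across all 1147 olfactory receptors, 16 rose and 1 fell, or 1.48% against 3.23% of all genes, and the median was 0.09. Dropping control replicate 2 left 10 of these rises. Olfactory receptors, trace amine receptors and aldo-keto reductases are families of similar sequence, and probes of one member could bind RNA of another, so the values of single members are uncertain. Of 12 aldo-keto reductases, 3 rose and 0 fell, against 1.76% higher over all genes. Akr1c15 and Akr1b10 rose by 2.54 and 2.12, with each array left out. Akr1c13 rose by 1.05 (adjusted p = 0.044), a call that did not hold with each array left out.

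Outside such clusters the genes beside the large changes were not called. For the 10 largest rises and 5 largest falls, the nearest measured gene on each side was read, 30 in all. Of these, 4 were called higher and 0 lower, and the 4 were Clca4, Clca1, Clca2 and Taar2. Clca1 and Clca4 are themselves among the 10 largest rises, so their calls were fixed by the choice. Over all genes, 1.76% were called higher and 1.47% lower. The neighbours of Gucy2f, Irs4 and Nxt2, differed by 0.06 and -0.11, and those of Cyp17a1, Wbp1l and Borcs7, by -0.29 and 0.23.

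**Figure D5:**
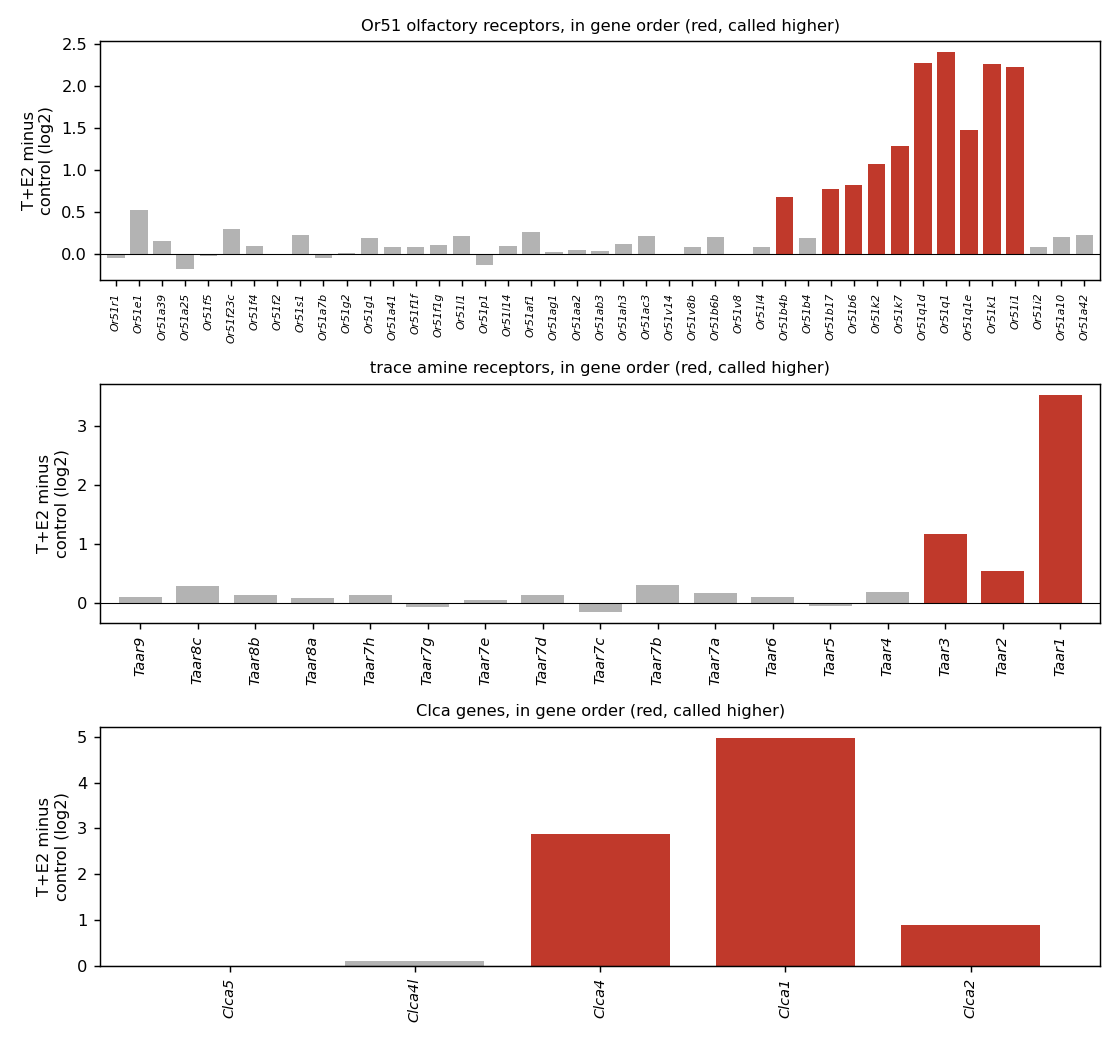
Difference between T+E2 and control (log2, vertical axes, bars from 0) for the measured Or51 olfactory receptors, trace amine receptors and Clca genes, each in the order in which the genes lie. Red bars are genes called higher and grey bars the rest. The red bars are adjacent in the lower 2 panels and broken by 1 grey bar, Or51b4, in the upper panel.

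The 1668 probe sets without a gene symbol were fitted with all probe sets of the table. Of these, 25 were called higher and 9 lower, 3 of them rose at least 16-fold, and their differences ran from -3.20 to 6.35.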

How the data were processed

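Lateral prostate RNA was read on 14 Affymetrix arrays. Per the labels' protocols, it had been extracted with TRIzol and amplified with the Ovation Pico WTA kit. The deposited values are log2 levels that RMA had produced, per the submitters' processing notes. The RMA version and probe set definition were not given in the sources used here. RMA removes differences in overall brightness between arrays. No read depth exists for arrays, and their number limits the precision. Of 17802 probe sets, the platform annotation gave 16134 a single symbol, 1668 no symbol and 0 more than 1. Updating changed 3127 symbols, and 15977 were linked to the RefSeq gene table (GRCr8). Promoter sequences are RefSeq's, and 13156 measured genes had one.

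The model was limma's (version 3.58.1, R 4.3.3), two-sided, with 1 coefficient per group over 14 arrays, 10 residual degrees of freedom and a prior worth 4.126 more. Every adjusted p in the text is limma's. Intervals are 95% intervals from the moderated standard error, group values are means with SDs over arrays, and p-values measure the spread between these samples. No gene was filtered out. The fit was tested on simulated data: 87 of 96 genes changed 2-fold and 104 of 104 changed 4-fold were recovered. Over 16134 genes there were 15 false calls. These counts hold for that data alone. On the real arrays, array weights ran from 0.258 (control replicate 4) to 2.501 (control replicate 3). The share of false calls among the real arrays' calls was not tested.

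The genes, the 35 gene lists (1084 entries) and the 17 families were chosen with earlier results of these data known, so their counts are descriptions. Named genes are the 20 largest rises and 20 largest falls that were called in the fit and with each of the 14 arrays left out in turn, that did not overlap between groups, and that have no serial symbol. Up to 4 called members of a list with the smallest p, 8 followed genes and the neighbours of 15 named genes are also named. Other genes beside a count, and the gene clusters, were chosen after their values were seen. Same-numbered control and T+E2 arrays deviated from their group means with correlations of 0.444, -0.318, 0.105 and -0.116. These values cannot settle whether the numbers pair the rats, and the main fit used no pairing. Alternatives were array weights, centring, cyclic loess, quantile normalization, all probe sets, a filter on dim genes, an intensity trend with a robust prior, only the compared arrays, ventral prostate or skeletal muscle means as covariates, a replicate block, other thresholds, and leaving out arrays.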

Additional observations from a re-analysis of the deposited data

Results flagged for a closer look

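Among 96 sets of 4 values, those of 48 genes in control and in T+E2, 8 had an array whose gap to the nearest other array took up most of the range by Dixon's criterion, and chance alone marks about 1 in 20 such sets. Control replicate 1 was the high array for 3 genes: Adgrg7 at 7.04 against 4.79 to 5.11 in the other controls, Ccl25 at 5.27 against 3.97 to 4.17, and Khdrbs2 at 4.63 against 3.90 to 3.98. All 3 genes rose in T+E2, and control replicate 1 was the highest control for 9 of the 20 named rises. Control replicate 4, with high ventral prostate genes, was high for Prlr, the prolactin receptor, at 9.84 against 7.55 to 7.87, and for Fam169a at 8.82 against 8.22 to 8.30. In T+E2, replicate 3 was high for Cyp17a1 at 8.33 against 7.36 to 7.43. T+E2 replicate 2, the other array with high ventral prostate genes, was low for Obp2a at 6.53 against 6.88 to 6.93 and for Elf5 at 8.15 against 8.54 to 8.59. The cause of these values was not tested.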

How the results depend on the processing

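All 40 named genes kept their direction under every alternative that measured them (the filter on dim genes left out 3), and kept their call except Plaat1 (adjusted p = 0.0654) and Spink5 (0.0512) with only the 8 compared arrays in the fit. The 14 fits with 1 array left out were part of the choice of these genes, so their calls there were fixed in advance. The counts over all genes, which had no such choice, moved more. The 521 genes changed between T+E2 and control became 222 with only the compared arrays, 1098 with array weights, 1140 with the ventral prostate covariate, 192 at an adjusted p below 0.01, 861 below 0.1 and 112 when at least 2-fold, and 282 to 662 with 1 array left out. The 569 between T+E2 and T+lowBPA became 904 with array weights, 868 with the ventral prostate covariate, 267 below 0.01 and 170 when at least 2-fold, and 309 to 882 with 1 array left out. The 1639 between T+E2 and T+highBPA became 2759 with array weights, 557 below 0.01, 2826 below 0.1 and 206 when at least 2-fold, and 857 to 2493 with 1 array left out. With a replicate block the 3 counts were 587, 587 and 1940, within 1.5 times of the reported ones. The share of calls that were higher in T+E2 than in control was 54.5%, and it was 67.1% with only the compared arrays, 69.8% below 0.01 and 83.0% when at least 2-fold. Falls outnumbered rises with array weights (46.9% higher), the ventral prostate covariate (48.4%), dim genes left out (49.3%) and at an adjusted p below 0.1 (49.2%), and the share ran from 47.7% without T+E2 replicate 3 to 67.5% without control replicate 2. Under centring, cyclic loess and quantile normalization it was 57.0%, 61.3% and 58.4%, and the median difference of all genes was 0.014, -0.002 and -0.008. The causes of these shifts were not tested. With 4 arrays a group, small differences can go uncalled.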
